A study of Homo sapiens with 12 samples.

Results

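The genes described are the 7 that encode the nuclear arm of the Hippo pathway: the co-activators YAP1 and WWTR1 (TAZ), the DNA-binding factors TEAD1, TEAD2, TEAD3 and TEAD4, and the TEAD cofactor VGLL4. They were taken by symbol, and all 7 were found among the 40649 genes of the count tables and passed the filter on low counts. Expression was measured by RNA-seq of polyadenylated RNA in HK-2 cells, a human proximal tubule line immortalised with papillomavirus genes; the extraction protocol in the labels speaks of kidney tissue. The 12 libraries form 3 groups of 4. ShNC libraries carry the genotype label ShNC and had no oxidant. H2O2 libraries carry the same genotype label and received hydrogen peroxide at 150 µM for 48 h. YH libraries carry the genotype label Yap1 knockdown and received the same hydrogen peroxide. No group combined the knockdown with untreated cells, so the knockdown and its interaction with the oxidant cannot be told apart here. The sources used here do not give the hairpin sequence, its vector or whether the lines are clones. Nothing ties the 4 libraries of a group to independent cultures, so the p-values reflect the scatter among these samples, and that scatter may be technical.

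YAP and TAZ do not bind DNA by themselves. When the Hippo kinases MST and LATS are inactive, they enter the nucleus and bind TEAD factors, which hold the DNA-binding domain and recognise the sequence GGAATG. VGLL4 binds the same surface of TEAD through its Tondu domains and competes with YAP, so that it acts as a repressor of TEAD output. In renal tubule the pathway is known for its part in repair after injury and in fibrosis.

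Between 30789997 and 46582873 counts were assigned to genes per library. ShNC replicate 4 and YH replicate 3 stood apart from the other 10 libraries, with 13.9% and 11.3% of counts from mitochondrially encoded genes against 4.54% to 5.64%, and fitted differences without these 2 libraries are given beside the called ones and beside those that became called. The proximal tubule was marked by PAX8 (a mean of 330 CPM, counts per 1e6 counts after TMM scaling) and CDH6 (382 CPM), whereas LRP2, CUBN and AQP1, defining genes of the mature segment, had means of 0.0537, 0.263 and 0.132 CPM. Of 5 epithelial markers all had a mean of at least 1 CPM, from KRT8 at 484 to CDH1 at 3.38 CPM, and their summed level was 965.1 to 1238 CPM in ShNC, 1212 to 1259 in H2O2 and 1120.4 to 1160.1 in YH. None of 4 endothelial markers and none of 4 distal nephron markers reached a mean of 1 CPM, UMOD was at 0 in every library, and 4 leukocyte markers summed to 1.00 to 1.67 CPM. The summed level of 4 fibroblast and pericyte markers was 26.9 to 31.8 CPM in H2O2 against 9.91 to 14.9 in ShNC and 12.1 to 14.6 in YH, and over all libraries COL1A1 had a mean of 15.6 CPM, PDGFRB 1.64, DCN 1.34 and PDGFRA 0.0435 CPM. The part of this shift in the results was not tested. In bulk RNA a change in level per cell and a change in the share of cells of a kind cannot be told apart.

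The 250 bases before a RefSeq start site (GRCh38.p14) were read for 5 of the 7 genes, in 11 windows; TEAD1 and TEAD4 were not matched. Both strands were searched for GGAATG, the TEAD sequence (reverse complement CATTCC), for TGACNNNGC, the antioxidant response element of NRF2, and for TGANTCA, the AP-1 sequence. GGAATG was present in 11.9% of 35116 windows of the same length across the genome, TGACNNNGC in 10.9% and TGANTCA in 6.57%. Of the 11 windows of these genes 1 held GGAATG, that of YAP1, and 0 held either of the others. The YAP1 window (chr11:102110197-102110446, plus strand) is shown because it is that window, and capitals mark the motif, at chr11:102110285-102110290, 162 bases before the start site. It lies in part over an exon of AP001527.2. The VGLL4 window (chr3:11604582-11604831, minus strand) is shown because VGLL4 changed most. It is 1 of 5 annotated starts of VGLL4, the only 1 of the 5 with no annotated exon in the window, and gene counts do not say which start was used. A match describes the letters only, and no binding was measured.
YAP1: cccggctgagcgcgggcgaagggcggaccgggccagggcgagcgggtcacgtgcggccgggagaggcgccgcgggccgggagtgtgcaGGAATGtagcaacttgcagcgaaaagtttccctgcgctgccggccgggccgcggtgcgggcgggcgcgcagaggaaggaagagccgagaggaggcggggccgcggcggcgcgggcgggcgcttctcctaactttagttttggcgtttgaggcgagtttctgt
VGLL4: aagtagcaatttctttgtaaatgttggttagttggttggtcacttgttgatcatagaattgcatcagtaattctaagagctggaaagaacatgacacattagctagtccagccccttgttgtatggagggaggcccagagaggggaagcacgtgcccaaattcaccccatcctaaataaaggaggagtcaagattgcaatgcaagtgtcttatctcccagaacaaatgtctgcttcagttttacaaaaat

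Across the groups, VGLL4 was higher in both oxidant-treated groups than in ShNC, YAP1 was higher in H2O2 than in either other group, and WWTR1 was lower in H2O2 than in either other group. Among the TEADs, TEAD2 was called higher and TEAD4 lower in H2O2 than in ShNC. TEAD1 was called lower in YH than in either other group, and TEAD3 was not called in any comparison. The calls of TEAD4 and of TEAD1 in YH against ShNC were lost in several alternative fits given below. With the shift of neighbouring genes removed, TEAD2 was no longer called and WWTR1 turned to 0.22 in H2O2 against ShNC. In H2O2 against ShNC 5 of the 7 genes were called, 3 higher and 2 lower, where 46.6% of 19268 tested genes were called (23.9% higher, 22.6% lower). In YH against H2O2 4 of the 7 were called, 1 higher and 3 lower, against 43.0% of all genes (22.0% higher, 21% lower). In YH against ShNC 2 of the 7 were called, 1 higher and 1 lower, against 32.5% (17.4% higher, 15.1% lower). The groups did not overlap for 5, 3 and 2 of the 7 genes in these comparisons, against 48.0%, 45.2% and 29.7% of all genes. With 7 genes these shares do not stand apart from the background, and the counts are not read as a result about the 7 genes as a set. The 3 comparisons share groups. Fold changes are log2 ratios ± SE, and adjusted p-values are from edgeR's quasi-likelihood test with Benjamini-Hochberg adjustment over all tested genes.

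**Figure D1:**
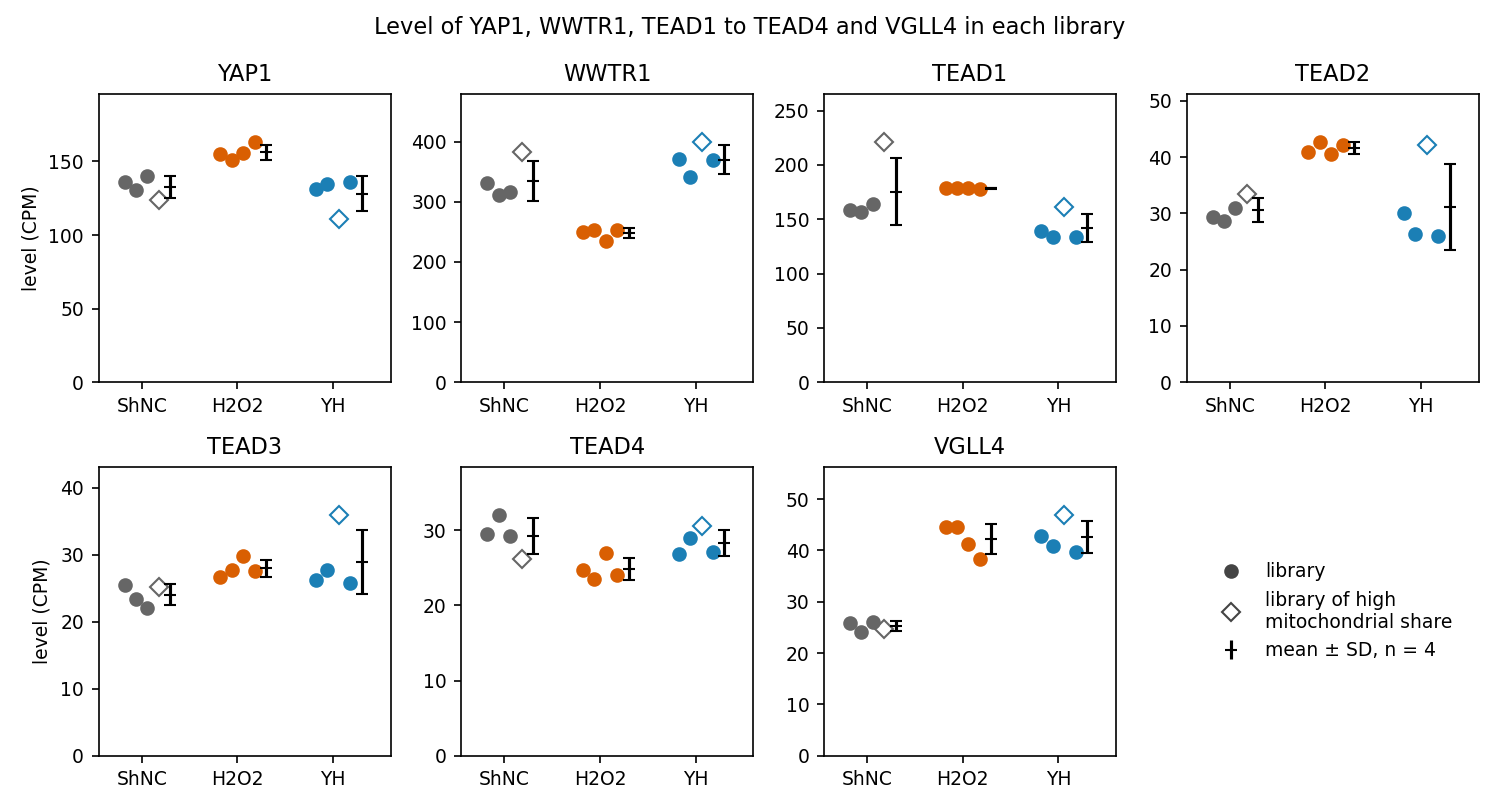
Level in CPM (vertical axes, starting at 0) of the 7 genes in each library of the 3 groups (horizontal axes); circles are libraries, open diamonds are the 2 libraries of high mitochondrial share, and black bars are the mean ± SD of 4 libraries. VGLL4 lies at 24.1 to 26.1 CPM in ShNC and at 38.4 to 46.9 CPM in both other groups, and WWTR1 is lowest in H2O2, at 235.0 to 253.7 CPM.

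YAP1 (ENSG00000137693; GRCh38 chromosome 11, 102110461 to 102233423, plus strand) is the gene targeted by the hairpin and was read first. ShNC libraries, in the order of their numbers, held 135.9, 130.3, 140.5 and 123.7 CPM. It was 155.2, 151.1, 155.6 and 163.5 CPM in H2O2. In the libraries labelled YH it was 131.3, 134.7, 110.9 and 135.9 CPM. The H2O2 libraries lay above every library of both other groups, while ShNC and YH overlapped. YAP1 was higher in H2O2 than in ShNC (0.24 ± 0.07, 95% interval 0.09 to 0.39, adjusted p = 0.0104) and lower in YH than in H2O2 (-0.29 ± 0.07, -0.43 to -0.14, adjusted p = 0.00346). In both cases the exact two-sided permutation p over 70 assignments was 0.0286, the smallest they can give. YH and ShNC differed by -0.05 ± 0.07, with an interval of -0.20 to 0.10 (adjusted p = 0.636). Without the 2 libraries of high mitochondrial share the first 2 differences were 0.20 and -0.22 and were still called (adjusted p = 1.7e-05 and 3.0e-06). YAP1 mRNA in the libraries labelled as the knockdown was thus below that of H2O2 but not below that of ShNC beyond the spread, and statements on YH refer to libraries so labelled. Exons of the antisense gene AP000942.2 cover 9.97% of YAP1's exon bases.

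WWTR1 (ENSG00000018408; chromosome 3, 149517235 to 149736714, minus strand) encodes TAZ, the paralog of YAP. It stood at 331.1, 310.7, 315.8 and 383.6 CPM in ShNC and at 249.1, 253.7, 235.0 and 253.7 CPM in H2O2. In YH it stood at 371.0, 340.5, 400.2 and 368.9 CPM. All H2O2 libraries lay below all others, and ShNC and YH overlapped. The difference of H2O2 from ShNC was -0.44 ± 0.07 (interval -0.59 to -0.28, adjusted p = 0.000128), and that of YH from H2O2 was 0.58 ± 0.07 (0.42 to 0.73, adjusted p = 1.0e-05). The exact permutation p was 0.0286 for each, and without both libraries of high mitochondrial share the differences were -0.37 and 0.54 and were still called. YH exceeded ShNC by 0.14 ± 0.07 (interval -0.01 to 0.30), which did not pass (adjusted p = 0.148), but it did so without ShNC replicate 4 (0.21, adjusted p = 0.00833) and without both libraries of high mitochondrial share (0.17, adjusted p = 0.00043).

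The fall of WWTR1 was measured beside that of the genes around it, because those genes were shifted together in H2O2. The 50 tested genes nearest to WWTR1 had a median log2 difference of -0.65 between H2O2 and ShNC, larger than that of WWTR1 itself. Per library this median was -0.67 to -0.61 in H2O2, against -0.07 to 0.10 in ShNC and -0.09 to 0.06 in YH. With the neighbours' shift removed in each library, WWTR1 was 0.22 higher in H2O2 than in ShNC (adjusted p = 0.0215), so that its direction turned. In YH against H2O2 the neighbours rose by a median of 0.65, and WWTR1 with their shift removed was at -0.07 (adjusted p = 0.464). WWTR1 thus fell less than its neighbours in H2O2, and it was higher in YH than in H2O2 by about as much as they were. The antisense gene WWTR1-AS1 covers 9.45% of its exon bases but stood at a mean of only 0.315 to 0.489 CPM per group.

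The balance of the 2 co-activators can be read without any scaling, as the ratio of raw WWTR1 to YAP1 counts in each library. The ratio was 2.44, 2.38, 2.25 and 3.10 in ShNC, 1.60, 1.68, 1.51 and 1.55 in H2O2, and 2.83, 2.53, 3.61 and 2.72 in YH. H2O2 libraries lay below all the others, and the highest ratio of ShNC and of YH was that of the library of high mitochondrial share. Per kilobase of exon (RPKM, CPM divided by the summed exon length in GENCODE 29), WWTR1 was at 39.9 ± 3.96 and YAP1 at 21.1 ± 1.15 in ShNC, and at 29.5 ± 1.05 and 24.8 ± 0.824 in H2O2 (SD, n = 4). In YH they were at 44.0 ± 2.90 and 20.4 ± 1.85 RPKM. WWTR1 remained the more abundant of the pair in every library.

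**Figure D2:**
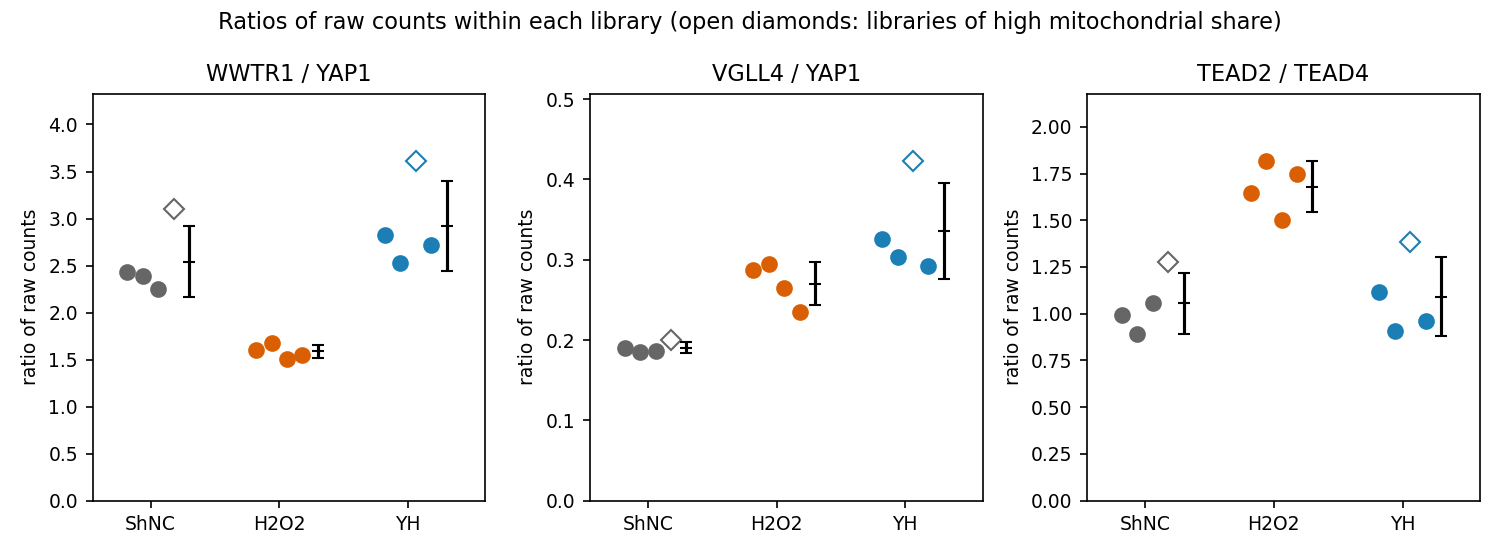
Ratio of raw counts within each library (vertical axes, starting at 0) by group: WWTR1 per YAP1, VGLL4 per YAP1 and TEAD2 per TEAD4; circles are libraries, open diamonds the 2 libraries of high mitochondrial share, black bars mean ± SD of 4. The WWTR1 to YAP1 ratio is 1.51 to 1.68 in H2O2 against at least 2.25 elsewhere, and the TEAD2 to TEAD4 ratio is 1.50 to 1.82 in H2O2 against at most 1.38 elsewhere.

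VGLL4 (ENSG00000144560; chromosome 3, 11556070 to 11771350, minus strand) showed the largest change of the 7 genes. ShNC libraries held 25.9, 24.1, 26.1 and 24.7 CPM, and H2O2 libraries 44.5, 44.5, 41.2 and 38.4 CPM. In YH it was 42.7, 40.9, 46.9 and 39.7 CPM. Both oxidant-treated groups lay wholly above ShNC and overlapped each other. VGLL4 was 1.67-fold higher in H2O2 than in ShNC (0.74 ± 0.07, interval 0.59 to 0.90, adjusted p = 6.4e-07). It was 1.69-fold higher in YH than in ShNC (0.76 ± 0.07, interval 0.60 to 0.91, adjusted p = 1.5e-06). The exact permutation p was 0.0286 for both. YH differed from H2O2 by 0.01 ± 0.07, with an interval of -0.14 to 0.17 (adjusted p = 0.903).

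The genes around VGLL4 shifted less than VGLL4 itself. It lies on the short arm of chromosome 3, and its 50 neighbours had a median of -0.13 in H2O2 against ShNC and 0.02 in YH against ShNC. With their shift removed VGLL4 differed from ShNC by 0.87 in H2O2 and 0.73 in YH. Leaving out any 1 library kept both differences called, at 0.72 to 0.79 and 0.71 to 0.79, and so did leaving out both libraries of high mitochondrial share, at 0.73 and 0.69. Genes on the opposite strand, chiefly ATG7, an autophagy enzyme gene, cover 23.7% of VGLL4's exon bases, and since strand use in counting is not stated VGLL4 is uncertain to that extent. ATG7 was at 17.8 ± 2.31, 16.2 ± 0.650 and 15.5 ± 1.52 CPM in ShNC, H2O2 and YH and was not called in H2O2 against ShNC (-0.14 ± 0.10, adjusted p = 0.283) or in YH against ShNC (-0.20 ± 0.10, adjusted p = 0.144). Raw VGLL4 counts per YAP1 count were 0.185 to 0.2 in ShNC, 0.235 to 0.295 in H2O2 and 0.292 to 0.423 in YH.

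**Figure D3:**
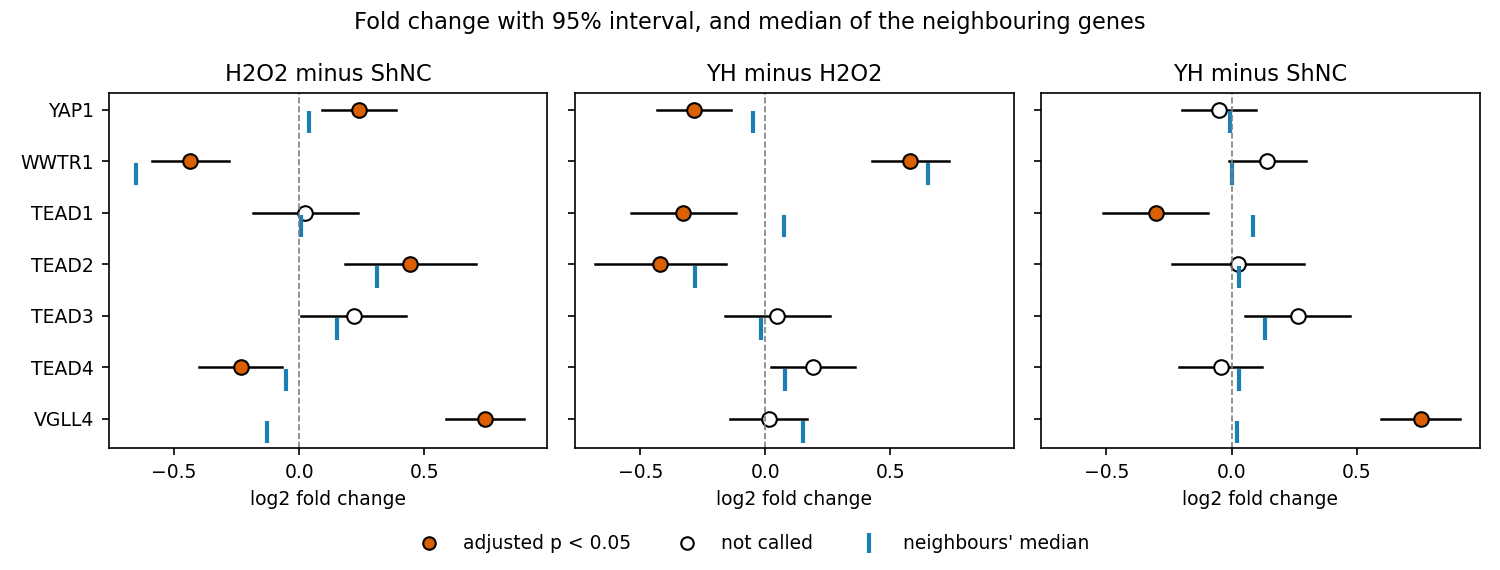
Log2 fold change (horizontal axes) of the 7 genes in the 3 comparisons, with 95% intervals as lines. Filled circles have an adjusted p under 0.05. Blue ticks are the difference between groups in the neighbouring genes' median log2 level, taken per library and averaged. WWTR1 lies beside neighbours at -0.65 in H2O2 against ShNC, whereas VGLL4, at 0.74, lies beside neighbours at -0.13.

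TEAD1 (ENSG00000187079; chromosome 11, 12674591 to 12944483, plus strand) had the highest mean level per kilobase of summed exon length of the TEADs in each group, although per kilobase of the longest transcript TEAD1 and TEAD4 were level in YH, at 16.75 and 16.77 RPKM. It stood at 158.6, 157.1, 164.0 and 221.4 CPM in ShNC, and at 178.6, 178.5, 178.6 and 177.5 CPM in H2O2. In YH it stood at 139.4, 133.6, 161.4 and 133.7 CPM. All YH libraries lay below all H2O2 libraries, and ShNC replicate 4 lay far above its group. TEAD1 was lower in YH than in H2O2 (-0.33 ± 0.10, interval -0.54 to -0.12, adjusted p = 0.0134, exact permutation p = 0.0286), while its neighbours had a median of 0.08. Against ShNC it was also lower in YH (-0.30 ± 0.10, adjusted p = 0.0269, exact permutation p = 0.0857). Leaving out YH replicate 1, 2 or 4 ended that call (adjusted p = 0.0648, 0.0783 and 0.0769), and the difference was -0.18 without ShNC replicate 4. Without both libraries of high mitochondrial share TEAD1 was called in each comparison, at 0.15 in H2O2 against ShNC (adjusted p = 0.00022), -0.40 in YH against H2O2 and -0.25 in YH against ShNC. With all libraries the difference of H2O2 from ShNC was 0.02 ± 0.10, with an interval of -0.18 to 0.23 (adjusted p = 0.86).

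TEAD2 (ENSG00000074219; chromosome 19, 49340595 to 49362457, minus strand) stood at 29.3, 28.6, 30.9 and 33.4 CPM in ShNC and at 40.8, 42.7, 40.5 and 42.2 CPM in H2O2. In YH it stood at 30.0, 26.3, 42.2 and 26.0 CPM, with replicate 3 within the range of H2O2 and the other 3 near ShNC. H2O2 exceeded ShNC in TEAD2 by 0.44 ± 0.12 (0.18 to 0.71), with adjusted p = 0.00747 and an exact permutation p of 0.0286. It was lower in YH than in H2O2 (-0.42 ± 0.12, adjusted p = 0.0119, exact permutation p = 0.114), and -0.60 without YH replicate 3. Without both libraries of high mitochondrial share the difference of H2O2 from ShNC was 0.48, and that of YH from H2O2 was -0.60. Its neighbours on chromosome 19 moved the same way, by medians of 0.31 and -0.28. With their shift removed TEAD2 was at 0.12 and -0.15 and passed in neither comparison (adjusted p = 0.506 and 0.406). YH and ShNC differed by 0.03 ± 0.12 (interval -0.24 to 0.29). CD37, on the opposite strand, covers 10.7% of TEAD2's exon bases. CD37, on the opposite strand, covers 10.7% of TEAD2's exon bases.

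TEAD4 (ENSG00000197905; chromosome 12, 2959330 to 3040673, plus strand) was at 29.4, 32.0, 29.2 and 26.1 CPM in ShNC, at 24.8, 23.5, 26.9 and 24.1 CPM in H2O2 and at 26.9, 28.9, 30.5 and 27.1 CPM in YH. It was lower in H2O2 than in ShNC (-0.23 ± 0.08, interval -0.40 to -0.07, adjusted p = 0.0226), with groups that overlapped through ShNC replicate 4 (exact permutation p = 0.0571). Leaving out ShNC replicate 2 ended the call (adjusted p = 0.0756), as did leaving out H2O2 replicate 1, 2 or 4 (0.0531, 0.0735 and 0.0659), scaling by library sizes alone (0.167) and removing the shift of its 43 neighbours (-0.18, 0.0737). It held without both libraries of high mitochondrial share (-0.30, adjusted p = 3.7e-05). In YH against H2O2 TEAD4 was at 0.19 ± 0.08 (interval 0.02 to 0.36) and was not called (adjusted p = 0.063). Leaving out ShNC replicate 4 (0.0239) or H2O2 replicate 3 (0.0437) brought it past the threshold, as did leaving out both libraries of high mitochondrial share (0.15, 0.0213).

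TEAD3 (ENSG00000007866; chromosome 6, 35473597 to 35497076, minus strand) had the lowest level of the 4 per kilobase. It was at 25.6, 23.5, 22.1 and 25.2 CPM in ShNC, at 26.7, 27.8, 29.8 and 27.6 CPM in H2O2 and at 26.2, 27.7, 35.9 and 25.9 CPM in YH. Every oxidant-treated library lay above every ShNC library, with exact permutation p = 0.0286 for both groups. The edgeR test did not call H2O2 against ShNC (0.22 ± 0.10, interval 0.01 to 0.43, adjusted p = 0.0842) or YH against ShNC (0.26 ± 0.10, interval 0.05 to 0.47, adjusted p = 0.0521). The first passed without YH replicate 3 (0.22, adjusted p = 0.0112), through the shared estimate of the spread. The second passed without ShNC replicate 4 (adjusted p = 0.0418) and without YH replicate 1 or 4 (0.0431 and 0.0359). Without both libraries of high mitochondrial share both passed, at 0.23 (adjusted p = 0.00091) and 0.16 (adjusted p = 0.0351). Neighbours of TEAD3 had medians of 0.15 and 0.14 in the same comparisons, and with their shift removed TEAD3 was at 0.06 and 0.13.

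Set side by side per kilobase, the order in ShNC was WWTR1, YAP1, TEAD1, TEAD4, TEAD2, TEAD3 and VGLL4. YAP1 (19.6 to 22.3 RPKM) and TEAD1 (15.3 to 21.5) overlapped, and the other neighbours in this order did not. In H2O2 TEAD2 (13.6 to 14.3 RPKM) stood above TEAD4 (10.4 to 11.9), and no 2 neighbours in the order overlapped. In YH TEAD1 (13.0 to 15.7 RPKM) overlapped TEAD4 (11.8 to 13.4). TEAD2 (8.72 to 14.2 RPKM) overlapped TEAD1, TEAD4 and TEAD3 (8.49 to 11.8). VGLL4 was lowest in all 3 groups on this length, at 3.48 ± 0.131, 5.83 ± 0.408 and 5.88 ± 0.433 RPKM in ShNC, H2O2 and YH. These levels rest on annotated lengths and not on the isoforms the cells used, and the place of VGLL4 depended on them. Per kilobase of the longest transcript VGLL4 was at 6.77, 11.3 and 11.4 RPKM and TEAD3 at 8.07, 9.39 and 9.70 RPKM, so that VGLL4 stood above TEAD3 in H2O2 and YH.

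The make-up of the TEAD family followed from this. TEAD2 held 21.3% ± 0.746 of the summed TEAD RPKM in ShNC, 27.1% ± 0.961 in H2O2 and 22.4% ± 2.50 in YH (SD, n = 4). TEAD4 held 26.9% ± 3.53, 21.3% ± 0.996 and 27.2% ± 2.09. TEAD1 held 35.3% ± 3.87, 33.7% ± 0.514 and 30.0% ± 1.10, where ShNC replicate 4 alone reached 41.0%. TEAD3 held 16.5% ± 1.10, 17.9% ± 0.536 and 20.5% ± 0.813. Without both libraries of high mitochondrial share, ShNC and YH held 33.4% and 30.5% for TEAD1, so that ShNC no longer lay above H2O2. On the same basis they held 21.3% and 21.2% for TEAD2, 16.7% and 20.2% for TEAD3, and 28.6% and 28.1% for TEAD4. TEAD2 counts per TEAD4 count were 0.995, 0.893, 1.06 and 1.28 in ShNC, 1.65, 1.82, 1.50 and 1.75 in H2O2 and 1.12, 0.908, 1.38 and 0.959 in YH. All H2O2 libraries lay above all others in this ratio, which needs no scaling.

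**Figure D4:**
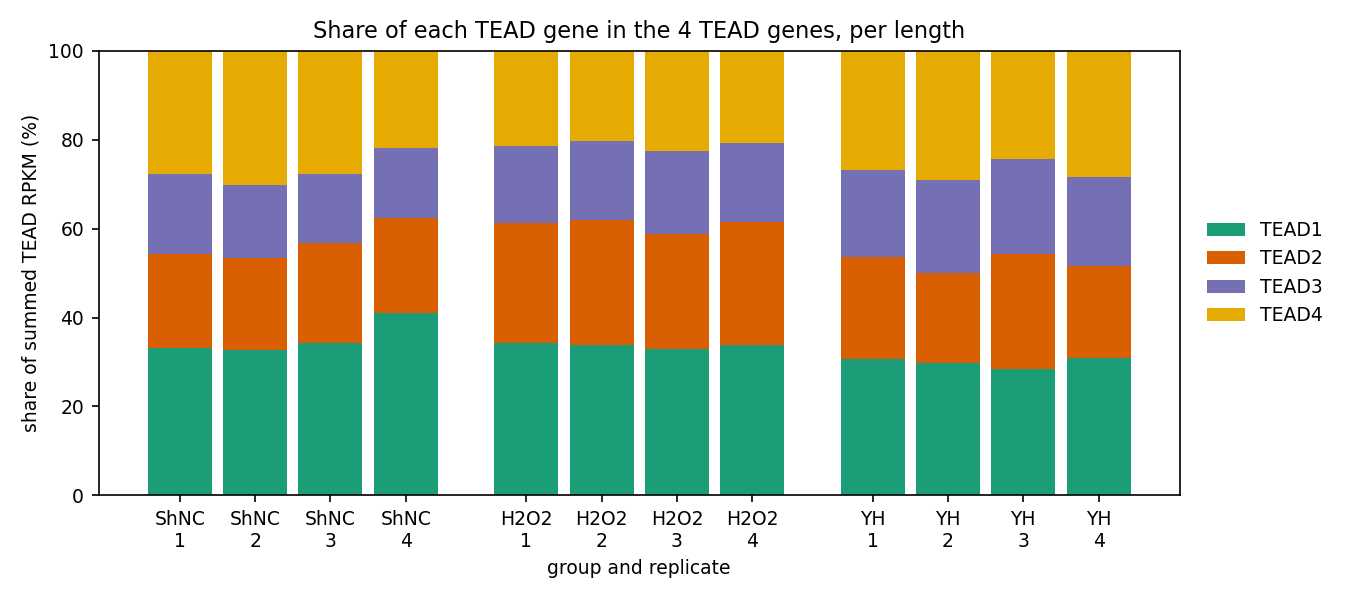
Share of each TEAD gene in the summed RPKM of the 4 TEAD genes (vertical axis, percent, stacked) in each of the 12 libraries (horizontal axis). The TEAD2 segment is 25.8% to 28.0% in H2O2 libraries and 20.5% to 22.3% in ShNC libraries, and YH replicate 3, at 25.7%, is the highest of its group.

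The rest of the pathway was read from 4 lists, chosen with earlier results of these data known. Their counts stand beside a background of 46.6% of all tested genes called in H2O2 against ShNC, 43.0% in YH against H2O2 and 32.5% in YH against ShNC, about evenly higher and lower, and nothing particular to a list is read from them. Without both libraries of high mitochondrial share more genes were called at large, 11603, 11194 and 9146 against 8971, 8288 and 6265. List counts without both libraries stand beside that larger background. Of 23 Hippo kinases and upstream regulators, 10 were higher and 5 lower in H2O2 against ShNC (23.9% and 22.6% of all genes), with a median of 0.08 against 0.0040 over all genes (12 and 6 without both libraries of high mitochondrial share). FRMD6, a FERM protein that activates the kinases, rose (85.8 ± 6.95 to 449.7 ± 36.5 CPM, 2.39 ± 0.12, adjusted p = 2.0e-10), as did the LATS-activating kinase MAP4K4 (1.27 ± 0.05). WWC1 (KIBRA), a scaffold of the LATS kinases, fell (215.5 ± 6.84 to 87.5 ± 2.58 CPM, -1.30 ± 0.05, adjusted p = 2.6e-11), and so did AJUBA, a LIM protein that restrains LATS (-0.615 ± 0.10). With neighbours' shift removed FRMD6 was at 2.17, MAP4K4 at 1.02, WWC1 at -1.13 and AJUBA at -0.80. In YH against H2O2 5 were higher and 8 lower (6 and 9 without both libraries), among them the cadherin FAT4 (1.13 ± 0.07) and WWC1 (0.80 ± 0.05) upward and MAP4K4 (-0.94 ± 0.05) and STK38L (-0.77 ± 0.09) downward. With neighbours' shift removed these 4 were at 1.11, 0.55, -0.74 and -0.77. Against ShNC, YH had 8 higher and 5 lower, with FRMD6 at 1.62 ± 0.11 and WWC1 at -0.50 ± 0.05 (10 and 8 without both libraries).

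Another list holds 20 genes tied to cytoplasmic retention or turnover of YAP and TAZ. Their roles differ, and SRC, YES1 and USP9X are among them. In H2O2 against ShNC 6 were higher and 6 lower (median 0.08, and 8 and 8 without both libraries). Of all genes 23.9% were higher and 22.6% lower. AMOT, the angiomotin that binds YAP at junctions, rose (14.8 ± 0.548 to 26.3 ± 2.24 CPM, 0.84 ± 0.08, adjusted p = 6.0e-07), and PTPN14, a phosphatase that binds YAP, rose by 0.57 ± 0.05, or 0.87 with neighbours' shift removed. The 14-3-3 genes YWHAH (-0.83 ± 0.05) and SFN (-1.53 ± 0.13) fell. In YH against H2O2 6 were higher and 3 lower (9 and 5 without both libraries). AMOTL2, an angiomotin gene on chromosome 3, was at 0.91 ± 0.05 there and at 0.23 with neighbours' shift removed, and YWHAQ at -0.61 ± 0.06 and then -0.31. In YH against ShNC 9 were higher and 6 lower (9 and 6 without both libraries), and AMOT was at 0.82 ± 0.08.

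Among other nuclear partners, 15 of 20 were tested, with 5 higher and 6 lower in H2O2 against ShNC (median -0.05; 5 and 8 without both libraries), where 23.9% of all genes were higher and 22.6% lower. ZEB1, a repressor that can join YAP on DNA, rose (14.5 ± 2.14 to 33.0 ± 1.46 CPM, 1.18 ± 0.10), and the renal lineage factor PAX8 fell (-0.80 ± 0.08). IRF2BP2, which can bind VGLL4, was higher in YH than in H2O2 (0.86 ± 0.08, or 0.52 with neighbours' shift removed) and higher than in ShNC (0.81 ± 0.08). That list had 5 higher and 3 lower in YH against H2O2 (6 and 6 without both libraries) and 4 higher and 2 lower in YH against ShNC (6 and 4).

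The 22 target genes, genes commonly read as outputs of YAP and TAZ, split in each comparison, 8 higher and 6 lower in H2O2 against ShNC (13 and 6 without both libraries), 9 and 9 in YH against H2O2 (9 and 11), and 8 and 6 in YH against ShNC (11 and 7). With all libraries 46.6%, 43.0% and 32.5% of all genes were called, and more were called without both. NT5E, an ecto-enzyme that makes adenosine, was higher in H2O2 than in ShNC by 1.77 ± 0.08 (adjusted p = 1.5e-10) and lower in YH than in H2O2 (-1.77 ± 0.08, adjusted p = 3.1e-10). ANKRD1, a muscle ankyrin-repeat gene used as a YAP readout, rose by 1.12 ± 0.09 in H2O2 and was lower in YH than in H2O2 (-0.91 ± 0.09). CCDC80 was also lower in YH than in H2O2 (-1.19 ± 0.08, or -1.70 with neighbours' shift removed). F3, which encodes tissue factor, was higher in YH than in H2O2 (1.19 ± 0.08). TGFB2 (26.6% of exon bases also annotated to a neighbour) was lower in H2O2 than in ShNC (-0.88 ± 0.16) and higher in YH than in H2O2 (0.99 ± 0.16). These TGFB2 differences were -0.61 and 0.72 with neighbours' shift removed, and -0.67 and 0.85 without both libraries of high mitochondrial share. AMOTL2, PTPN14 and LATS2 stand in 2 of the 4 lists.

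**Figure D5:**
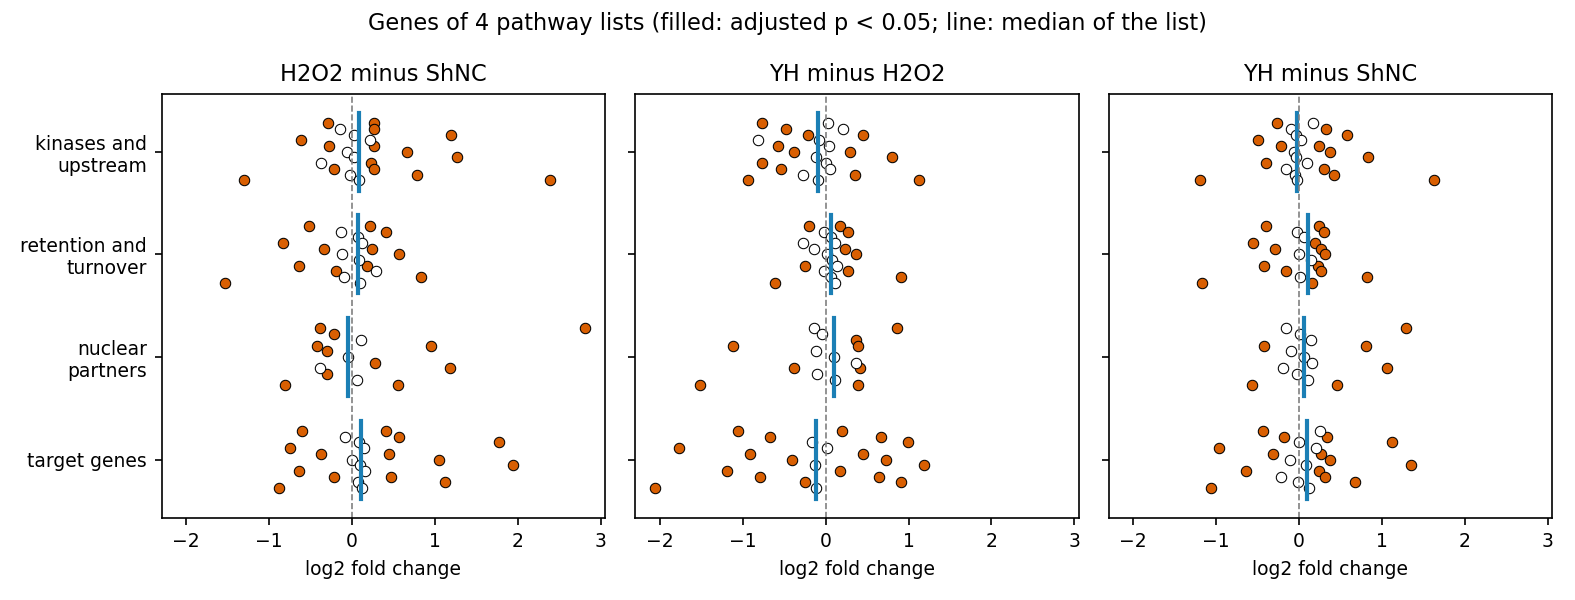
Log2 fold change (horizontal axes) of each tested gene of the 4 pathway lists (rows) in the 3 comparisons; filled points have an adjusted p under 0.05, and blue lines are list medians. Points lie on both sides of 0 in every list, and medians stay between -0.12 and 0.11.

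The genes whose pattern over the 12 libraries was nearest to each of the 7 were found by the root mean square difference in centred log2 level among 11527 genes, with no claim on function. For VGLL4 they were RHBDF1 (0.0604) and AMOT (0.0639), of which AMOT stood at 14.8, 26.3 and 26.0 CPM in ShNC, H2O2 and YH. For YAP1 they were SRSF11 (0.036) and SEPTIN7 (0.0449), and for WWTR1 MSI2 (0.0625) and FAM13A (0.0667). TEAD1 was nearest to DDX60L (0.0431) and UBE2A (0.045), TEAD2 to POLD2 (0.0663) and SMG9 (0.0788), TEAD3 to GPR108 (0.0603) and PCBP4 (0.0619), and TEAD4 to TBC1D10B (0.0502) and RPS6KA1 (0.0602). Of these genes only SMG9 shares a chromosome with the gene it was matched to, chromosome 19 with TEAD2. POLD2, nearer to TEAD2 than SMG9, lies on chromosome 7. MSI2 and FAM13A lie on chromosomes 17 and 4 and WWTR1 on chromosome 3.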

How the data were processed

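For each of the 12 libraries the deposited values are whole-number counts per Ensembl gene. The submitters' processing notes list the names HISAT2, featureCounts, Subread and DESeq2 and the build GRCh38; the sources used here do not give versions, annotation, strand setting or the handling of multi-mapped reads. Symbols came from a table of gene names, and positions and lengths from GENCODE 29 (GRCh38). Genes were filtered with filterByExpr, which left 19268, scaled with TMM and fitted in edgeR 4.0.16 (R 4.3.3) with 1 mean per group over all 12 libraries, 9 residual degrees of freedom; an adjusted p under 0.05 was called. The fit was tested on simulated counts. Neighbours are the 25 tested genes on each side with a mean of at least 5 CPM, fewer at a chromosome end. Their median log2 level relative to ShNC was taken in each library. The median given for a comparison is the difference between the group means of these library medians. Alternatives were other scalings, no filter, DESeq2 1.42.0, 2 groups only, a replicate block, left-out libraries, mitochondrial genes left out and neighbours' shift removed. The 21 exact tests of single genes are not adjusted. Replicates differed beyond sampling noise, which does not show that they are independent cultures, and each was counted once. Chi-square per degree of freedom was 95.8 to 159 for pairs within a group that held ShNC replicate 4 or YH replicate 3. It was 2.85 to 6.39 for the other pairs. The floor of 3 counts is 0.0644 to 0.0974 CPM and covers counting error only. The 7 genes, the lists and the tests were chosen with earlier results of these data known. Named are the 7 genes, up to 2 called rises and 2 falls per list and comparison at a mean of at least 5 CPM, of which the text gives a part, and the 2 nearest patterns per gene. Of the marker lists 1 is not reported here.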

Additional observations from a re-analysis of the deposited data

Results flagged for a closer look

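TEAD1 in ShNC replicate 4, at 221 CPM, stood apart from the other 3 libraries of its group, at 157 to 164 CPM. TEAD1 in H2O2 replicate 4, at 178 CPM, stood apart from 3 libraries that all rounded to 179 CPM, a gap of about 1 CPM in a very narrow group. Chance alone marks about 1 in 20 such groups, and 21 groups of 4 were looked at.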

How the results depend on the processing

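The calls of VGLL4 against ShNC, of YAP1 and WWTR1 in the first 2 comparisons, and of TEAD1 in YH against H2O2 kept their direction and threshold under every alternative run, except that WWTR1 turned with neighbours' shift removed. Without both libraries of high mitochondrial share, TEAD1 (0.15) and TEAD3 (0.23) in H2O2 against ShNC, TEAD4 (0.15) in YH against H2O2, and WWTR1 (0.17) and TEAD3 (0.16) in YH against ShNC became called; TEAD3 (-0.074) and VGLL4 (-0.037) in YH against H2O2 and TEAD2 (-0.12) in YH against ShNC changed sign uncalled. With library sizes alone, TEAD3 (0.30 and 0.28) against ShNC in H2O2 and YH and WWTR1 (0.16) in YH against ShNC became called, TEAD4 (-0.16) in H2O2 against ShNC was lost, and TEAD3 (-0.022) and VGLL4 (-0.052) in YH against H2O2 changed sign uncalled. With neighbours' shift removed, WWTR1 turned to 0.22 and -0.071 in the first 2 comparisons, TEAD2 (0.12 and -0.15) and TEAD4 (-0.18 in H2O2 against ShNC) were lost, and VGLL4 (-0.14, YH against H2O2) and TEAD2 (-0.030, YH against ShNC) changed sign uncalled. With 2 groups only, TEAD3 (0.22, H2O2 against ShNC) and TEAD4 (0.19, YH against H2O2) became called and TEAD1 (-0.31, YH against ShNC) was lost; DESeq2 called TEAD4 in YH against H2O2 (0.195). The cause was not tested.

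With single libraries left out, H2O2 against ShNC ranged from -0.031 to 0.15 for TEAD1, 0.18 to 0.25 for TEAD3 and -0.29 to -0.19 for TEAD4. YH against H2O2 ranged from -0.073 to 0.098 for TEAD3, 0.15 to 0.23 for TEAD4 and -0.035 to 0.045 for VGLL4. YH against ShNC ranged from -0.088 to 0.016 for YAP1, 0.10 to 0.21 for WWTR1, -0.37 to -0.18 for TEAD1, -0.15 to 0.10 for TEAD2 and 0.15 to 0.32 for TEAD3. With library sizes alone the split of all called genes was 5375 higher and 3520 lower in H2O2 against ShNC and 3447 higher and 4534 lower in YH against H2O2, against 4612 and 4359, and 4235 and 4053, with TMM. With single libraries left out, genes called numbered 8067 to 10038, 7196 to 9684 and 5346 to 7298. Without both libraries of high mitochondrial share 11603, 11194 and 9146 genes were called, against 8971, 8288 and 6265 with all libraries. The added calls among the 7 genes in that setting thus came with added calls among all genes. With the replicate block 8536, 7798 and 5731 genes were called, and no call of the 7 genes changed. Same-numbered libraries did not all deviate together (correlations -0.49 to 0.45), so the numbers were not taken as pairs.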

Other observations

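Of the Vestigial-like genes, VGLL4 passed the filter on low counts. VGLL1 reached at most 0.0572 CPM in any library, VGLL2 0.114 CPM and VGLL3 0.416 CPM, and these 3 genes did not pass it. The summed RPKM of the 4 TEAD genes was 46.4 to 52.5 in ShNC, 50.8 to 52.6 in H2O2 and 42.1 to 55.1 in YH, where the highest value of ShNC and of YH was that of the library of high mitochondrial share.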
